A study of Mus musculus with 46 samples.

Results

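The genes described here are the subunits of the mitochondrial oxidative phosphorylation machinery that are encoded in the nucleus, followed in microglia (MG) and in macrophages that come from bone marrow (BMDM), both sorted from mouse gliomas. A gene was a member when its symbol begins with Nduf followed by a, b, c, s or v and a digit (complex I), is Sdha, Sdhb, Sdhc or Sdhd (complex II), begins with Uqcr (complex III), begins with Cox and a digit from 4 to 8 (complex IV), or begins with Atp5 (complex V, the ATP synthase). Symbols that end in -ps or Rik were left out. The rule used no measured value. It gave 85 of the 23329 genes in the count table: 37 of complex I, 4 of complex II, 8 of complex III, 19 of complex IV and 17 of complex V. The symbols also bring in a few genes whose products are not structural subunits of the complex they are counted with: Cox4nb is an older symbol of Emc8, Atp5s and Atp5sl are factors related to ATP synthase by name, and Cox7a2l acts in the assembly of respiratory supercomplexes. Ndufa4 and Ndufa4l2 are counted with complex I by symbol, although the Ndufa4 protein is known as a subunit of complex IV.

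The study asked how both populations react to the therapies, in tumours that shrink and in tumours that come back. Each of 23 mice gave 1 MG and 1 BMDM library, 46 in all. All mice were nTVA Ink4a/Arf KO/KO animals whose glioma was started at 5 to 6 weeks of age by injecting DF1 cells, a chicken fibroblast line that releases the RCAS-PDGFB-HA virus, into the right frontal cortex; in this system the viral receptor TVA is expressed from the nestin promoter, so the virus enters nestin-expressing cells. Treated mice received BLZ945, an inhibitor of the receptor CSF1R, ionizing radiation (IR), or both (IR-BLZ945), and tumours were taken at 5 days (4, 2 and 3 mice) or at recurrence (2, 4 and 4 mice), against 4 vehicle mice. The age at which each tumour was taken is not given in the labels, and every group, vehicle included, carries the Ink4a/Arf deletion. MG and BMDM were sorted as CD45+ CD11b+ Ly6C- Ly6G- cells without and with CD49d, after macrodissection, dissociation and removal of myelin. RNA was amplified with the Smart-Seq kit, which has no molecular identifiers, so counts are reads and not molecules.

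Electrons enter the respiratory chain through complex I (from NADH) and complex II (succinate dehydrogenase, which is also an enzyme of the citric acid cycle), pass through complex III to cytochrome c and then to complex IV, where oxygen is reduced. Complexes I, III and IV pump protons, and complex V uses the gradient to make ATP. Most subunits are encoded in the nucleus, and the rest, encoded in mitochondrial DNA, were not analysed here. Macrophages are known to shift between oxidative phosphorylation and glycolysis with their activation state, and several subunits of complex IV exist as a widely expressed and a tissue-restricted isoform.

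Total counts ran from 3007379 to 16993474 per library, with a median of 11730650.5, and 9181 to 12885 genes had at least 10 counts. Markers followed the sort in vehicle tumours: 10 of 10 microglia markers tested were higher and 10 of 10 BMDM markers lower in MG than in BMDM. Their summed levels were 9431.5 to 25753.4 CPM (counts scaled to the size of the library) in MG against 2252.4 to 3049.4 CPM in BMDM for microglia markers, and 153.5 to 701.7 CPM in MG against 1151.8 to 3541.4 CPM in BMDM for BMDM markers. There were 6 libraries that stood apart: BMDM of mice 122 and 124 and MG of mice 65971 and 68344 had under 11000 genes with at least 10 counts, and the MG and BMDM libraries of mouse 65698 disagreed in their sex-linked genes. Sex-linked genes were not balanced between groups. Xist exceeded Y-linked genes in 5-day BLZ945 mice 122, 123, 124 and 65975 and in vehicle mice 78, 65966 and 65967. Y-linked genes exceeded Xist in vehicle mouse 41 and in IR-recurrent mice 68343, 68344, 68345 and 68346. Of the recurrent BLZ945 mice, 67668 had the Y-linked and 70696 the Xist profile, and IR-BLZ945 groups were mixed. The part of sex in the comparisons was not tested. Lars2, a mitochondrial leucyl-tRNA synthetase gene, was above 1000 CPM in 22 libraries, namely all 20 recurrent libraries and vehicle MG of mice 41 and 78, and at most 830 CPM in the others. A recurrent stage and a high Lars2 level can therefore not be told apart in any comparison of recurrent with 5-day libraries. In sorted bulk samples, fewer cells of a type and less RNA per cell cannot be told apart.

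Promoters of the members were searched for the letters of a few known regulatory motifs. Promoter sequence, taken from RefSeq on GRCm38.p6 as 250 bases before the start, was matched for 69 of the 85 members. The letters GCGCA, any base and then GCGC, a form of the site bound by NRF1 (nuclear respiratory factor 1, a known regulator of respiratory genes), were found on either strand in 12 of 69 (17.4%) and in 3.8% of 26956 other promoters. The letters CCGGAAG, a form of the site of ETS factors, which include GABP, were in 11 (15.9%) and in 7.0% of other promoters. Either motif was in 20 (29.0%) against 10.3% of other promoters. TCAAGGTCA, a site of oestrogen-related receptors, was in 1 (1.4%) against 0.4%, CACGTG in 7 (10.1%) against 6.0%, and AAGATGGC, a site of YY1, in 0 against 1.6%. Shown next are the promoters of Sdha, whose window had 3 NRF1 matches, of Cox6a1, with 2 NRF1 matches and 1 ETS match, and of Atp5b, with no match. They were chosen because Atp5b and Cox6a1 were higher in recurrent than in 5-day MG after IR and IR-BLZ945 and Sdha passed in neither, as described further on. Capitals mark the matched letters (an ETS match on the other strand reads CTTCCGG), no matches overlap in these windows, and each sequence runs 5′ to 3′ on the strand of the gene.
Sdha (chr13:74350241-74350490, minus strand): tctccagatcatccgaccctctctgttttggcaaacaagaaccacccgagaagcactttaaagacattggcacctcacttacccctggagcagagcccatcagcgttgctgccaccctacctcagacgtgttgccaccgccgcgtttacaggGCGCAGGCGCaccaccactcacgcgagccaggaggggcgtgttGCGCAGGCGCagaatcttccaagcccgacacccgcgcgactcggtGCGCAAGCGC
Cox6a1 (chr5:115348959-115349208, minus strand): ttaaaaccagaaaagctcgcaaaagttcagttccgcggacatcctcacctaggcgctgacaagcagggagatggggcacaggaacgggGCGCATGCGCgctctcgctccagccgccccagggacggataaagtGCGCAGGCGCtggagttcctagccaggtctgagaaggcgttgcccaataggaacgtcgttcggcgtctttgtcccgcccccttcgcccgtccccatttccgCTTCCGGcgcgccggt
Atp5b (chr10:128083057-128083306, plus strand): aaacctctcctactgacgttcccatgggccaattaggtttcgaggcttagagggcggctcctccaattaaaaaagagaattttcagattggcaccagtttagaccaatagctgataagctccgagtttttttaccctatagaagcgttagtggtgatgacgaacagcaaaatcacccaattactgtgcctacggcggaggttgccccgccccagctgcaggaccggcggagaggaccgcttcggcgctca
A match is a description of letters, and whether any factor binds there was not measured.

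In vehicle tumours the subunits were among the well expressed genes of both cell types. Levels compared between genes were CPM divided by the transcript length in kilobases, with lengths from GENCODE vM21. Cox4i1, the common isoform of complex IV subunit 4 (chr8:120668222-120674207, plus strand), was highest in MG at 628.09 CPM per kb and stood at 379.96 CPM per kb in BMDM. Atp5b, the catalytic beta subunit of ATP synthase (chr10:128083273-128090391, plus strand), had 489.82 CPM per kb in MG and 428.47 CPM per kb in BMDM. Small subunits followed. Cox6b1 had 446.29 CPM per kb in MG and 343.24 in BMDM, Cox6a1 had 439.08 and 341.5, and Ndufa1, a small complex I subunit, had 398.65 and 302.28.
Core or catalytic subunits of the other complexes were lower per length. Uqcrc1, a core subunit of complex III (chr9:108936633-108949623, plus strand), had 171.74 CPM per kb in MG and 197.88 in BMDM, and Sdha, the flavoprotein of complex II (chr13:74322254-74350280, minus strand), had 98.62 and 116.74. At the other end, Ndufs5 had no count in 45 of 46 libraries, Cox8c in 41, Cox8b in 38, Cox7b2 in 35 and Ndufa4l2 in 24. After the filter on low counts, 82 members were tested in MG (35, 4, 8, 18 and 17 of complexes I to V), 81 in BMDM (17 of complex IV) and 82 in the joint fit of both.
Counting can blur some members. Transcripts of the module are short, with a median of 835 bases, 50 under 1 kb and a range of 360 to 4942 bases among the 84 with a length. Of the 50-base windows of Atp5g2, 87.4% also occur in transcripts of other genes, and the shares were 84.8% for Atp5l, 53.0% for Cox7c, 47.9% for Atp5h and 43.4% for Uqcrb, so these values are uncertain. Ndufb8 shares exons with Gm20538 on its own strand. An exon on the opposite strand overlaps 26 members, among them Cox4i1, which meets Emc8 (in the table as Cox4nb), and whether reads were counted by strand is not given in the sources used here.

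**Figure D1:**
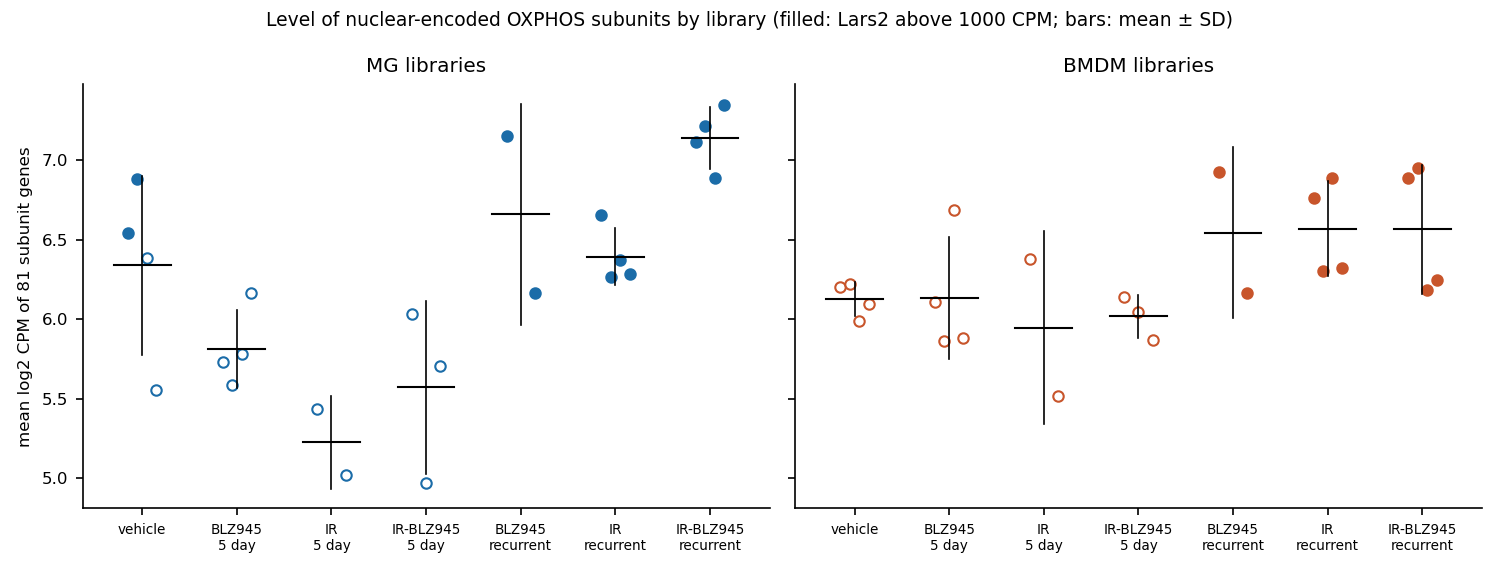
Mean log2 CPM of the 81 subunit genes tested in every fit (y axis), for each MG library (left) and BMDM library (right) by stage (x axis); lines are the group mean with ± SD, and filled points are libraries with Lars2 above 1000 CPM. MG at 5 days after IR stand at 5.02 and 5.43 and recurrent MG after IR-BLZ945 between 6.89 and 7.35, while BMDM groups have means between 5.95 and 6.57.

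Across stages, the mean level of the module in treated MG was below the vehicle mean at 5 days and above it at recurrence, and group means lay closer together in BMDM. The mean log2 CPM over the 81 members tested in every fit was used to show this, as a description. In MG it was 6.34 ± 0.56 in vehicle (SD, n = 4) and, at 5 days, 5.82 ± 0.25 after BLZ945 (n = 4), 5.23 ± 0.29 after IR (n = 2) and 5.57 ± 0.54 after IR-BLZ945 (n = 3). At recurrence it was 6.66 ± 0.70 after BLZ945 (n = 2), 6.40 ± 0.18 after IR (n = 4) and 7.14 ± 0.20 after IR-BLZ945 (n = 4).
The vehicle MG libraries were far apart. Mice 41, 78, 65966 and 65967 had 6.54, 6.88, 6.39 and 5.56, so mouse 65967 lay among the 5-day MG libraries, which ran from 4.97 to 6.16. Recurrent MG ran from 6.17 to 7.35, just above all 9 of the 5-day MG libraries.
In BMDM the means were 6.13 ± 0.11 in vehicle, then 6.13 ± 0.38, 5.95 ± 0.61 and 6.02 ± 0.14 at 5 days after BLZ945, IR and IR-BLZ945, and 6.55 ± 0.54, 6.57 ± 0.30 and 6.57 ± 0.41 at recurrence in the same order. The 5-day BMDM library of mouse 124, which is among those with few genes, was at 6.69 and overlapped the recurrent range of 6.17 to 6.95. As a share of all counts, members took 0.516% in MG at 5 days after IR and 1.62% in recurrent MG after IR-BLZ945, against 1.05% ± 0.317 in vehicle MG (SD, n = 4), 0.592 to 1.33%.

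At 5 days after IR, MG had lower levels of 12 of 82 subunits and higher levels of 0, against 1.77% of 14534 genes called lower (edgeR quasi-likelihood test, Benjamini-Hochberg adjusted over all genes). The median log2 fold change over the 82 was -1.21, where the median of all genes was 0.014, and 80 of 82 were negative. Complex V gave 4 of the calls, complex IV gave 6, complex I gave 2, and complexes II and III gave none. Medians by complex were -1.12, -0.62, -1.19, -1.40 and -1.31 for I to V. The 2 IR libraries lay below all 4 vehicle libraries for 50 of the 82, against 14.2% of all genes tested.
Atp5g3, which encodes the c subunit of the ATP synthase ring, stood at 5.72 and 5.97 log2 CPM in MG at 5 days after IR, against 7.95, 8.11, 7.52 and 6.77 in vehicle MG of mice 41, 78, 65966 and 65967. Both treated libraries lay below every vehicle library, and the log2 fold change was -1.79 ± 0.34 (SE, as in all fold changes that follow; adjusted p = 0.00671, edgeR).
Cox5a, a structural subunit of complex IV, stood at 5.49 and 5.22 after IR, against 7.31, 7.36, 7.11 and 6.06 in vehicle, a log2 fold change of -1.66 ± 0.32 (adjusted p = 0.00808, edgeR). Atp5e, the epsilon subunit of the ATP synthase, stood at 4.77 and 4.26, against 6.88, 7.89, 6.53 and 5.45 in vehicle, a change of -2.37 ± 0.54 (adjusted p = 0.0209, edgeR). The groups overlapped for neither gene. Also lower without overlap were the c subunit gene Atp5g2 (-1.83 ± 0.45), Cox6c (-1.93 ± 0.42), Cox7b (-1.87 ± 0.46) and Cox7a2 (-1.70 ± 0.43), small complex IV subunits, with adjusted p between 0.0179 and 0.0406 in edgeR. Sdha stood at 8.10 and 7.85 log2 CPM after IR, against 8.30, 7.92, 8.22 and 8.18 in vehicle, and the groups overlapped.
The count was 0 without mouse 65698 or without mouse 65972, each of which leaves a single IR library that is assumed to vary like the other groups. It was 49 without vehicle mouse 65967, 2 without vehicle mouse 78, and 5 and 6 without vehicle mice 41 and 65966. It was 41 with DESeq2, 2 when mouse numbers of 2 or 3 digits and of 5 digits were fitted apart, 3 without the libraries that stood apart, which also leaves 1 IR library, and 0 against only the vehicle libraries of like Lars2 level.

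BLZ945 alone for 5 days changed 0 of 82 subunits in MG, where 0.303% of genes passed, while 30 had an unadjusted p under 0.05, against 13.4% of all genes. With DESeq2 2 passed, and 2 passed without mouse 65975 or without vehicle mouse 65967. The median was -0.54 and 73 were negative, with medians of -0.54, -0.03, -0.48, -0.60 and -0.55 for complexes I to V, and 0 members were without overlap between the groups, against 7.03% of all genes. The smallest p belonged to Cox6a2, the tissue-restricted isoform of complex IV subunit 6a, at -1.82 ± 0.49 (adjusted p = 0.091, edgeR), and to Cox7a1, a muscle isoform, at -2.51 ± 0.80 (adjusted p = 0.154).
IR-BLZ945 for 5 days gave 8 lower and 3 higher subunits in MG, against 3.89% of genes called lower and 9.55% called higher. Of those lower, Atp5b stood at 9.37, 8.30 and 9.19 log2 CPM in MG after IR-BLZ945, against 10.06, 10.02, 9.93 and 9.40 in vehicle, with no overlap and a change of -0.74 ± 0.24 (adjusted p = 0.0415, edgeR). Ndufa1 (-1.12 ± 0.36) and Ndufa10 (-0.74 ± 0.24), both of complex I, also fell without overlap. Cox5a (-0.98 ± 0.27), Atp5e (-1.45 ± 0.44), Cox7b (-1.20), Atp5g3 (-0.96) and Atp5c1 (-0.88) fell with overlap.
The 3 that rose were Atp5sl at 1.08 ± 0.33 (adjusted p = 0.0356, edgeR) without overlap, and Cox8b and Cox7b2, isoforms best known from muscle and from testis, which rest on few libraries. Cox8b had 2.86, 0 and 3.44 CPM and Cox7b2 had 0.88, 30.61 and 0 CPM in MG of mice 65696, 65971 and 67537, so the high values come from different mice. Summed choroid plexus markers were 1739.8, 22.3 and 1628.9 CPM in those same 3 libraries and at most 58.7 CPM in other MG libraries, 7 of 7 such markers were called higher, and their part in these values was not tested. Also called higher in this comparison were 5 of 10 astrocyte, 5 of 8 neuron and 3 of 6 myelin markers, and 6 microglia markers were lower.
The count of 11 was 34 without vehicle mouse 65967, 1 without mouse 65971, 41 or 65966, 3 without vehicle mouse 78 and 6 without mouse 67537. Without the libraries that stood apart it was 1, and against vehicle libraries of like Lars2 level it was 0.

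In BMDM at 5 days, 0 of 81 subunits passed after BLZ945, IR or IR-BLZ945, where 5.51%, 1.07% and 0.57% of 14568 genes did. Unadjusted p was under 0.05 for 3, 4 and 2 of them, against 23.4%, 16.9% and 15.2% of all genes, and DESeq2 called 0 after BLZ945 and 1 after each of IR and IR-BLZ945. Without mouse 65975, 3 passed after BLZ945, and without vehicle mouse 65967, 1 after IR. Medians were 0.18, -0.13 and -0.11, with 57, 29 and 27 of 81 positive. The smallest p after BLZ945 belonged to Cox7a2l at 1.00 ± 0.38 (adjusted p = 0.12, edgeR), after IR to Atp5g3 at -1.57 ± 0.55 (adjusted p = 0.153) and after IR-BLZ945 to Cox6b2, a testis isoform, at 2.05 ± 0.69 (adjusted p = 0.168).

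Against vehicle, recurrent tumours gave few calls. In recurrent MG after IR-BLZ945, 2 of 82 subunits rose, where 2.04% of genes were called higher. Their median was 0.77 against -0.021 for all genes, and 78 were positive. An unadjusted p under 0.05 was reached by 55, against 22.2% of all genes, and for 36 all recurrent libraries lay above all vehicle libraries, against 9.13% of all genes. Ndufc2, an accessory subunit of complex I, stood at 7.91, 8.14, 7.56 and 8.21 log2 CPM in MG of recurrent mice 67169, 67543, 67947 and 68362, against 7.10, 7.50, 6.86 and 6.18 in vehicle, all recurrent values above all vehicle values, at 0.98 ± 0.27 (adjusted p = 0.0417, edgeR). Ndufv1, the NADH-binding subunit of complex I, stood at 6.89, 7.51, 6.84 and 6.92, against 6.34, 6.69, 6.07 and 6.05 in vehicle, again without overlap, at 0.74 ± 0.22 (adjusted p = 0.0494, edgeR).
The count of 2 was 38 with DESeq2, 26 without vehicle mouse 78, 19 without the libraries that stood apart, 0 when any other single library was left out, and 0 against the vehicle libraries of like Lars2 level, mice 41 and 78. In MG recurrent after BLZ945 and IR, 0 of 82 passed, where 3.53% and 4.33% of genes did, at medians of 0.37 and 0.05 with 75 and 52 positive. Unadjusted p was under 0.05 for 3 and 0 of them, against 14.6% and 12.4% of all genes. Uqcrc1 had the smallest p after BLZ945 at 0.83 ± 0.33 (adjusted p = 0.198, edgeR).
In recurrent BMDM after BLZ945, IR and IR-BLZ945, 0 of 81 passed, where 0%, 1.87% and 0.0275% of genes did. Their medians were 0.52, 0.52 and 0.53 with 75, 75 and 76 positive, and 8, 18 and 22 had an unadjusted p under 0.05, against 8.12%, 15.7% and 10.3% of all genes. The smallest p values belonged to Sdhc, a membrane anchor of complex II, after BLZ945 (0.83 ± 0.30, adjusted p = 0.422, edgeR) and IR-BLZ945 (0.70, adjusted p = 0.308), and to Cox4i1 after IR (0.92 ± 0.32, adjusted p = 0.141). All comparisons with vehicle share the 4 vehicle mice of their population, so their values are given side by side only.

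**Figure D2:**
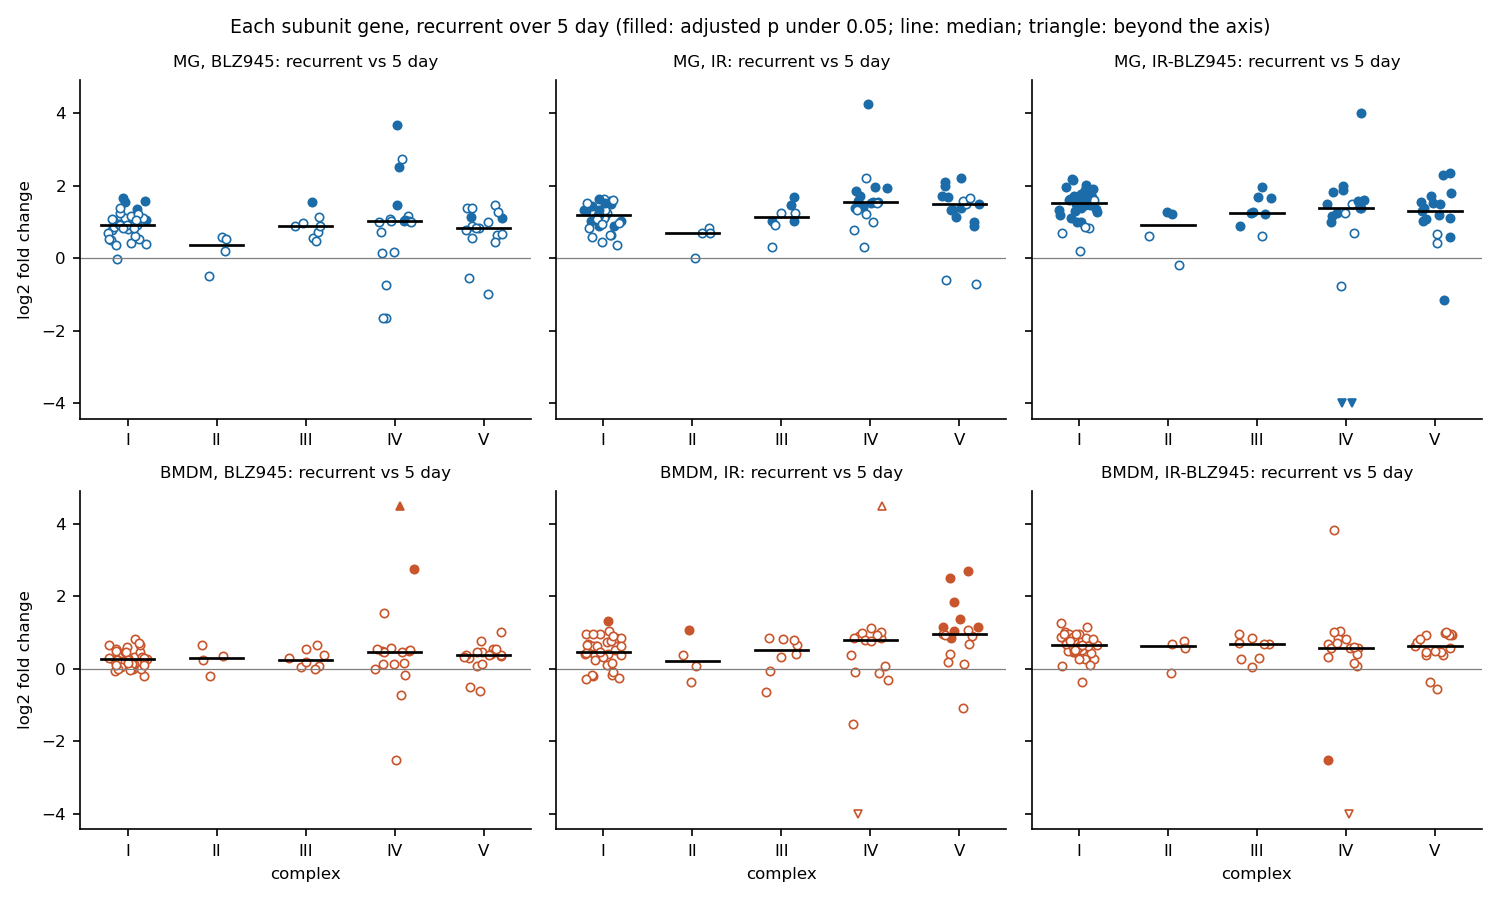
Log2 fold change of recurrent over 5-day libraries (y axis) for each subunit gene by complex (x axis), in MG (top) and BMDM (bottom) after BLZ945, IR and IR-BLZ945; filled points passed an adjusted p of 0.05, lines are the median of the complex, and triangles lie beyond the axis. In MG after IR-BLZ945 65 points are filled above 0, and in BMDM after IR most filled points belong to complex V.

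Between recurrent tumours and tumours at 5 days of the same therapy, most subunits tested in MG rose after IR-BLZ945, 45 rose after IR and fewer after BLZ945. After IR-BLZ945, 65 of 82 were higher and 3 lower in recurrent MG, against 11.5% of genes called higher and 16.6% called lower, with a median of 1.39 where all genes had -0.08. After IR, 45 of 82 were higher and 0 lower, against 8.13% of genes called higher, with a median of 1.33 against 0.066 for all genes. After BLZ945, 13 were higher and 0 lower, against 6.32%, with a median of 0.91 against -0.026. All 45 calls after IR, 66 of the 68 after IR-BLZ945 and 11 of the 13 after BLZ945 had no overlap between the recurrent and the 5-day libraries, against 99.8%, 70% and 96.4% of all genes called in these comparisons.
Complexes I, III, IV and V took part, and complex II least. After IR, 17 of 35 subunits of complex I, 0 of 4 of complex II, 4 of 8 of complex III, 11 of 18 of complex IV and 13 of 17 of complex V rose, with medians of 1.19, 0.71, 1.13, 1.54 and 1.50. After IR-BLZ945 the numbers higher were 30, 2, 7, 12 and 14, and the medians were 1.52, 0.92, 1.26, 1.39 and 1.32. After BLZ945 they were 5, 0, 1, 5 and 2. Whether complex II differed from the others was not tested.

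Among ATP synthase genes, Atp5g3 stood at 8.08, 7.75, 7.93 and 7.76 log2 CPM in MG of IR-recurrent mice 68343 to 68346, against 5.72 and 5.97 at 5 days after IR. Every recurrent library was above both 5-day libraries, at 2.11 ± 0.35 (adjusted p = 0.00115, edgeR). Atp5e stood at 7.99, 7.69, 7.58 and 8.13 in recurrent MG after IR-BLZ945, against 5.88, 4.65 and 5.33 at 5 days, at 2.36 ± 0.45 (adjusted p = 0.00185, edgeR), the groups far apart. After IR it was 2.22 ± 0.53 (adjusted p = 0.01), with 7.09, 6.32, 6.70 and 6.57 at recurrence against 4.77 and 4.26 at 5 days.
Atp5b, the most expressed member of complex V, stood at 10.15, 10.09, 10.16 and 10.02 in IR-recurrent MG, against 8.81 and 8.86 at 5 days (1.34 ± 0.28, adjusted p = 0.00456, edgeR). It stood at 10.22, 10.45, 10.04 and 10.19 in recurrent MG after IR-BLZ945, against 9.37, 8.30 and 9.19 (1.08 ± 0.24, adjusted p = 0.00375). Neither pair of groups overlapped. Atp5j2, the f subunit of the ATP synthase, was among the most changed after IR-BLZ945, at 2.29 ± 0.45 (adjusted p = 0.00218, edgeR).

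Of complex IV, Cox5a stood at 7.40, 7.18, 7.25 and 7.12 in IR-recurrent MG, against 5.49 and 5.22 at 5 days after IR (1.95 ± 0.33, adjusted p = 0.00128, edgeR). In recurrent MG after IR-BLZ945 it stood at 7.67, 7.64, 7.53 and 7.86, against 6.15, 5.77 and 5.93 (1.59 ± 0.28, adjusted p = 0.000904). All recurrent values were above all 5-day values. Cox4i1 stood at 9.79, 9.68, 9.58 and 9.99 after IR-BLZ945 at recurrence, against 8.53, 7.74 and 8.06 at 5 days (1.50 ± 0.38, adjusted p = 0.00778), and it was 1.59 ± 0.44 after IR (adjusted p = 0.024).
Cox7a2, the common isoform of subunit 7a, was the small subunit named after BLZ945: 8.26 and 6.98 in MG of recurrent mice 67668 and 70696, against 6.00, 5.86, 6.27 and 6.71 at 5 days, at 1.48 ± 0.38 (adjusted p = 0.0195, edgeR). The groups did not overlap. The mean over the module was 7.15 in mouse 67668 and 6.17 in mouse 70696.

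In complex I, Ndufb8, an accessory subunit of the membrane arm (chr19:44548572-44555440, minus strand), stood at 8.83, 8.88, 8.44 and 9.22 in recurrent MG after IR-BLZ945, against 7.13, 6.18 and 7.01 at 5 days, with no overlap (1.92 ± 0.39, adjusted p = 0.00238, edgeR). Ndufc2 stood at 7.91, 8.14, 7.56 and 8.21, against 6.36, 5.85 and 5.98 (1.77 ± 0.31, adjusted p = 0.000933). Ndufb11 (2.18 ± 0.46), Ndufc1 (2.16 ± 0.70) and Ndufa4 (2.03 ± 0.50) had the highest changes of complex I by symbol. In 5-day MG of mouse 65971, a library with few genes, these 3 stood at 4.21, -3.53 (no count) and 3.51 log2 CPM. They stood at 6.02, 5.55 and 6.92 in mouse 65696 and at 5.73, 5.17 and 6.47 in mouse 67537. The size of these changes therefore rests in part on 1 library. After BLZ945, Ndufb4 (1.66 ± 0.46, adjusted p = 0.0274) and Ndufa12 (1.55 ± 0.38, adjusted p = 0.0145), with the complex III subunit Uqcrq (1.55 ± 0.44, adjusted p = 0.0318), were named.
The core subunit Uqcrc1 of complex III stood at 8.03, 8.34, 7.86 and 7.83 in IR-recurrent MG, against 8.03 and 7.51 at 5 days, with overlap (0.30 ± 0.34, not passed). After IR-BLZ945 it stood at 8.90, 9.50, 8.20 and 8.96, against 7.91, 8.12 and 7.81, without overlap (0.88 ± 0.30, adjusted p = 0.0341, edgeR).
Sdha of complex II did not pass in any of the 3. It stood at 7.85, 8.09, 7.88 and 7.88 in IR-recurrent MG, against 8.10 and 7.85 at 5 days (0.01 ± 0.19, unadjusted p = 0.955, edgeR), and at 7.92, 7.76, 8.21 and 7.95 in recurrent MG after IR-BLZ945, against 8.10, 7.85 and 8.12 (-0.19 ± 0.17, adjusted p = 0.43). The other subunits of complex II that were called after IR-BLZ945 were the iron-sulfur subunit Sdhb (1.29 ± 0.30, adjusted p = 0.00505) and Sdhc (1.23 ± 0.32, adjusted p = 0.00874).
The 3 genes called lower in recurrent MG after IR-BLZ945 were those called higher at 5 days, Atp5sl (-1.16 ± 0.33), Cox8b (-5.17 ± 1.46) and Cox7b2 (-9.93 ± 2.19); the comparisons share the 5-day libraries.

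Leaving out single libraries moved these counts unevenly. After IR-BLZ945 the count of 68 stayed between 62 and 70. After IR the count of 45 was 2 without mouse 65972 and 10 without mouse 65698, with 1 IR library left at 5 days and its spread taken from the other groups, and 21, 30, 18 and 29 without recurrent mice 68343, 68344, 68345 and 68346. After BLZ945 the count of 13 was 0 without recurrent mouse 67668, 29 without 70696, each with 1 recurrent library left, 26 without 65975, and 2 to 4 without 5-day mice 122, 123 or 124. Without all the libraries that stood apart, 71, 46 and 32 passed after IR-BLZ945, IR and BLZ945, of which the count after IR rests on 1 library at 5 days.

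In BMDM, recurrent over 5-day libraries gave 10 higher subunits after IR, 2 after BLZ945 and 0 after IR-BLZ945. Of all genes, 7.06% were called higher after IR, 5.17% after BLZ945 and 259 of 14568 after IR-BLZ945. Of the 10 after IR, 8 belong to ATP synthase, whose median was 0.96, with 0.64 for all 81 members and 0.207 for all genes. Atp5g3 stood at 8.54, 7.93, 8.43 and 7.96 log2 CPM in IR-recurrent BMDM, against 5.63 and 5.78 at 5 days after IR (2.51 ± 0.58, adjusted p = 0.00877, edgeR). Atp5b stood at 10.56, 10.12, 10.51 and 10.19, against 8.60 and 9.24 (1.38 ± 0.32, adjusted p = 0.00984). For each of the 10, the recurrent libraries lay above both 5-day libraries, as for 100% of all genes called higher in this comparison.
Atp5g2 (2.69 ± 0.73), Atp5e (1.85 ± 0.55), Atp5d (1.17 ± 0.38), Atp5g1 (1.15), Atp5c1 (1.06) and Atp5a1 (0.84) were the other ATP synthase genes that rose, with Sdhc (1.07 ± 0.32) and Ndufc2 (1.33 ± 0.43) from complexes II and I. The count was 0 without mouse 65698 and 5 without 65972, with 1 library left at 5 days, 3 without recurrent mouse 68343 or 68345, 6 without 68346 and 7 without 68344. After BLZ945 the 2 calls were Cox4i2 and Cox6a2, described below with the isoforms, and the median was 0.30. That count was 0 without either recurrent mouse, which leaves 1, and 1 without mouse 122 or 123. After IR-BLZ945 the median was 0.64, 75 of 81 were positive and 34 had an unadjusted p under 0.05, against 19.3% of all genes, while 1 member was lower, Cox6b2, against 1.92% of genes called lower; that call was lost without any 1 of mice 65696, 67537, 67169, 67543, 67947 and 68362, and without the libraries that stood apart 16 members passed.

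**Figure D3:**
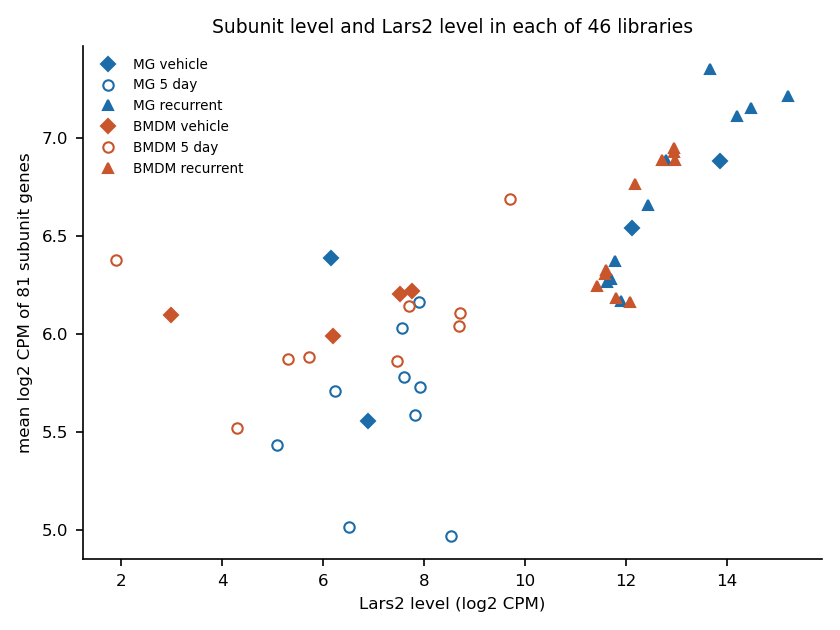
Mean log2 CPM of the 81 subunit genes (y axis) against the level of Lars2 in log2 CPM (x axis), 1 point per library, with MG in blue and BMDM in orange and stages by symbol. All recurrent libraries and 2 vehicle MG libraries stand at the right, and among them the libraries with more Lars2 have the higher subunit level.

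Other quantities moved with these comparisons. Among the 22 libraries above 1000 CPM of Lars2, its log2 level and the module mean had Pearson's r = 0.88 and Spearman's rho = 0.85 (0.89 for r without the 2 farthest libraries). Within recurrent MG r was 0.91 and rho 0.85, and within recurrent BMDM 0.89 and 0.73 (10 libraries each). In the 24 libraries at or below that limit r was 0.03 and rho 0.14 (0.34 for r without the 2 farthest libraries). Libraries of 1 mouse and of 1 scaling share in these points, so this is a description. Malat1, also read per library, stood at 10.55 to 12.45 log2 CPM in 5-day MG, 7.88 to 10.29 in recurrent MG and 8.94 to 10.37 in vehicle MG. In BMDM it stood at 11.15 to 14.05 at 5 days, 7.74 to 10.79 at recurrence and 11.32 to 13.2 in vehicle. The relation of Malat1 to the subunit changes was not tested.
Summed markers of oligodendrocyte precursors and glioma cells were 101.3 to 884.3 CPM in recurrent MG, 6.7 to 91.5 CPM in 5-day MG and 65.2 to 107.1 CPM in vehicle MG. Much of the vehicle sum was Cspg4, at 34.61 to 92.42 CPM in vehicle and 20.73 to 205.0 CPM in recurrent MG. Pdgfra had 0 to 9.71 CPM in vehicle and 16.87 to 254.28 CPM in recurrent MG. Some markers overlapped, such as Nes with 4.3 to 7.21 and 2.34 to 18.65 CPM. Of these 11 markers, 9, 9 and 6 were higher at recurrence than at 5 days after BLZ945, IR and IR-BLZ945 in MG, and 6, 6 and 5 in BMDM. Olig2 was at 0 in all 9 of the 5-day MG libraries and above 0 in all 10 recurrent MG libraries.
BMDM markers summed to 318.9 to 806.7 CPM in recurrent MG, 168.7 to 304.2 CPM in 5-day MG and 153.5 to 701.7 CPM in vehicle MG, and 3, 4 and 1 of 10 were called higher at recurrence. Microglia markers summed to 5281.0 to 13747.1 CPM in recurrent MG and 7151.4 to 27890.4 CPM in 5-day MG. Of 15 cell cycle genes, 8, 15 and 14 were higher in recurrent than in 5-day MG after BLZ945, IR and IR-BLZ945, and 13 and 14 were lower at 5 days than in vehicle after IR and IR-BLZ945. The part of these markers in the subunit changes was not tested.

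**Figure D4:**
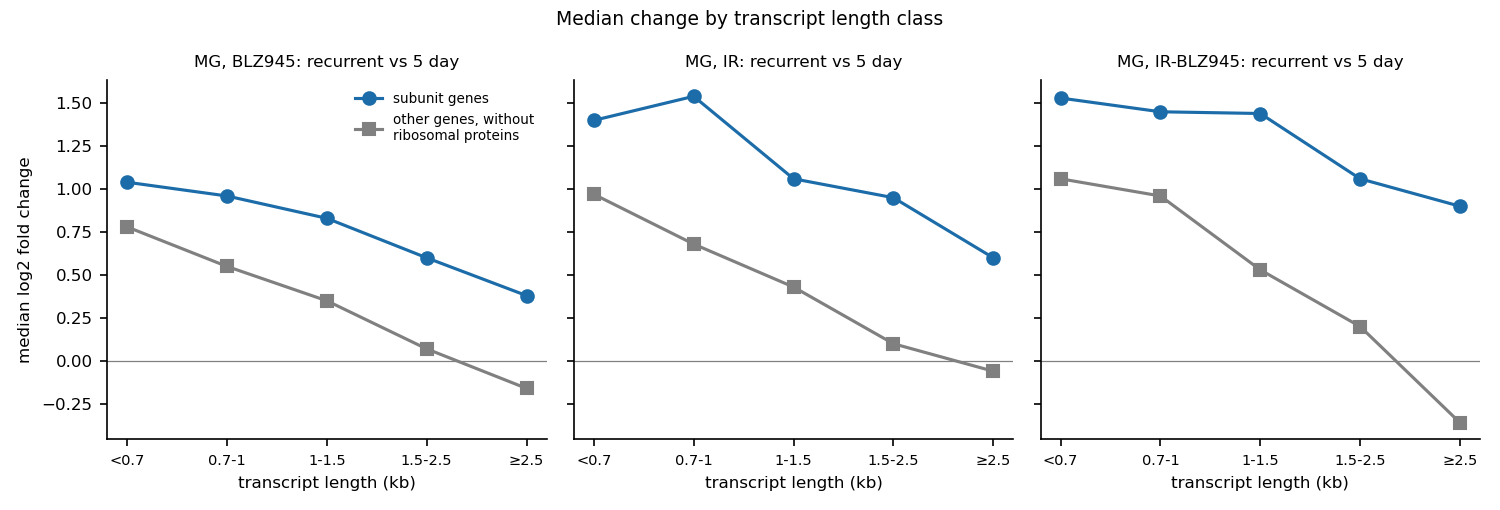
Median log2 fold change of recurrent over 5-day MG (y axis) by class of transcript length in kb (x axis), after BLZ945, IR and IR-BLZ945, for subunit genes (circles; 31, 16, 14, 14 and 6 genes) and for other genes without ribosomal proteins (squares). The line of other genes falls with length in each panel, the subunit line ends lower than it starts, with its highest point after IR at 700 to 1000 bases, and the subunit line is the upper in every class.

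Short transcripts in general moved with the stage. Among other genes, with ribosomal proteins left out, the median log2 fold change of recurrent over 5-day MG after IR was 0.97 for transcripts under 700 bases, 0.68 for 700 to 1000, 0.43 for 1000 to 1500, 0.10 for 1500 to 2500 and -0.06 for 2500 or more. Subunit genes had medians of 1.40, 1.54, 1.06, 0.95 and 0.60 in the same classes. After IR-BLZ945 the others had 1.06, 0.96, 0.53, 0.20 and -0.36 and the subunits 1.53, 1.45, 1.44, 1.06 and 0.90. At 5 days after IR against vehicle the others had -0.96, -0.66, -0.37, -0.05 and 0.13 and the subunits -1.38, -1.25, -0.97, -0.75 and -0.53. The 4 classes from 700 bases up hold 6 to 16 subunits each and are thin.
Cytosolic ribosomal protein genes, which are also short, changed in the same direction in MG: 72 of 81 were higher in recurrent than 5-day libraries after IR (median 2.15), 76 after IR-BLZ945 (1.62) and 35 after BLZ945 (1.26), and 61 were lower at 5 days after IR than in vehicle (-1.94).

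Neighbouring pathways were read from lists. Of 15 glycolysis genes tested, 8 were higher in recurrent than 5-day MG after IR, 9 after IR-BLZ945 and 7 after BLZ945, with medians of 1.77, 1.20 and 1.33, and 6 were lower at 5 days after IR than in vehicle (median -2.02). Gapdh, the glyceraldehyde 3-phosphate dehydrogenase, was -2.73 ± 0.50 at 5 days after IR against vehicle (adjusted p = 0.00504, edgeR) and 2.94 ± 0.51 at recurrence against 5 days (adjusted p = 0.00151). In BMDM 10 glycolysis genes rose after IR at a median of 2.5, 7 after BLZ945 (1.41) and 7 after IR-BLZ945 (1.27).
Of 16 citric acid cycle genes, 2 rose in MG after IR, among them the citrate synthase gene Cs (0.96 ± 0.24, adjusted p = 0.0121), and 6 after IR-BLZ945; none fell at 5 days after IR. Of 76 mitochondrial ribosomal protein genes, 7 rose after IR, 41 after IR-BLZ945 and 6 after BLZ945, with medians of 0.76, 1.02 and 0.72. Of 26 assembly factors of the complexes tested, 0 passed after IR or BLZ945, while after IR-BLZ945 Cox16 (1.22) and Ndufaf3 (1.03) rose and Sco1 fell (-1.49).
Of 14 regulators of mitochondrial biogenesis, 0 passed after BLZ945 or IR and 2 were lower in recurrent MG after IR-BLZ945, Pprc1 (-2.28 ± 0.39, adjusted p = 0.000751, edgeR) and Ppargc1a (-7.10 ± 1.61, adjusted p = 0.00445). Ppargc1a averaged -2.43 log2 CPM in MG recurrent after BLZ945, near the -3.53 of no count, so its fitted change may rest on few reads. The 5-day libraries after IR-BLZ945 also carried choroid plexus markers, whose part in this change was not tested. Of 4 subunit or electron carrier genes that the symbol rule does not reach (Cyc1, Ndufab1, Usmg5 and Cycs), all 4 rose in MG after IR-BLZ945, with Usmg5 at 2.29, 0 passed after IR, and Cycs, cytochrome c, rose after BLZ945 (1.34).

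Set against BMDM of the same stage, MG had higher Cox6a2 in vehicle and otherwise no subunit that passed: 1 of 82 was higher, against 3.84% of 15901 genes called higher. The median over the 82 was 0.23, with 69 positive, and 0.09 over all genes. At 5 days most calls were lower in MG, but after BLZ945 and IR-BLZ945 the share of subunits called lower was below or close to that of all genes. After BLZ945, 1 was higher and 7 lower, against 11.6% and 10.3% of genes; after IR, 1 and 6, against 4.96% and 4.13%; after IR-BLZ945, 1 and 6, against 5.68% and 7.11%. The medians were -0.53, -0.83 and -0.28.
Cox5a and Cox6b2 were lower in MG in all 3. After BLZ945, Cox5a stood at 6.23, 5.93, 6.34 and 6.70 log2 CPM in MG of mice 122, 123, 124 and 65975, against 7.01, 7.04, 7.99 and 6.78 in BMDM of those mice, all MG values below all BMDM values, at -0.96 ± 0.28 (adjusted p = 0.0113, edgeR). It was -1.51 ± 0.40 after IR (adjusted p = 0.0128) and -1.22 ± 0.33 after IR-BLZ945 (adjusted p = 0.0112). Also lower in MG were Ndufb4 (-1.15 ± 0.40) after BLZ945, Ndufb7 (-1.48) and Ndufb8 (-1.53) after IR, and Ndufa6 (-1.37), Atp5b (-0.87) and Uqcrc2 (-0.86) after IR-BLZ945. With the mouse as a block, 3 of the calls no longer passed: Ndufb4 after BLZ945 (-1.06, adjusted p = 0.0776), Ndufa12 after IR (-1.34, 0.0791) and Ndufv2 after IR-BLZ945 (-0.89, 0.0542).
The counts of 8, 7 and 7 were 3, 0 and 4 without the libraries that stood apart, the 0 with 1 library of each population. After BLZ945 the count was 22 without mouse 65975 and 3, 4 and 2 without mice 122, 123 and 124. After IR it was 0 without mouse 65698 and 1 without mouse 65972, with 1 library of each population left, and after IR-BLZ945 it was 4 without mouse 65696 and 1 without mouse 65971.
At recurrence 0 of 82 passed after BLZ945, where 0.0818% of genes did, and 1 had an unadjusted p under 0.05, against 4.15% of all genes. Of the 82, 1 was higher in MG after each of IR and IR-BLZ945, against 0.547% and 1.64% of genes called higher. That gene was Cox6a2 both times, and the call after IR was lost without mouse 68343. The medians were 0.14, -0.22 and 0.60. After IR-BLZ945 the count was 5 with the mouse as a block and 7 with DESeq2.

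The difference between the MG and the BMDM response to each therapy was also tested, as the MG change from vehicle minus the BMDM change from vehicle. At 5 days 0 of 82 subunits passed after BLZ945, IR and IR-BLZ945, where 1.65%, 0.0755% and 0.358% of genes did, and at recurrence 0 passed, where 0%, 0.0189% and 0% of genes did. The medians were -0.75, -1.07 and -0.58 at 5 days and -0.11, -0.45 and 0.31 at recurrence. Unadjusted p was under 0.05 for 22, 30 and 8 members at 5 days, against 15.2%, 10.1% and 12.2% of all genes, and for 0, 1 and 0 at recurrence, against 3.01%, 4.62% and 3.26%. At 5 days after BLZ945 1 passed with DESeq2 and 2 without mouse 65975. The smallest p at 5 days belonged to Ndufb4 after BLZ945 (-1.67 ± 0.56, adjusted p = 0.126, edgeR), Uqcr11 after IR (-1.95 ± 0.61, adjusted p = 0.234) and Atp5e after IR-BLZ945 (-1.94 ± 0.64, adjusted p = 0.186). A lower subunit level at 5 days in MG and not in BMDM is therefore not shown as a difference between the populations.

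**Figure D5:**
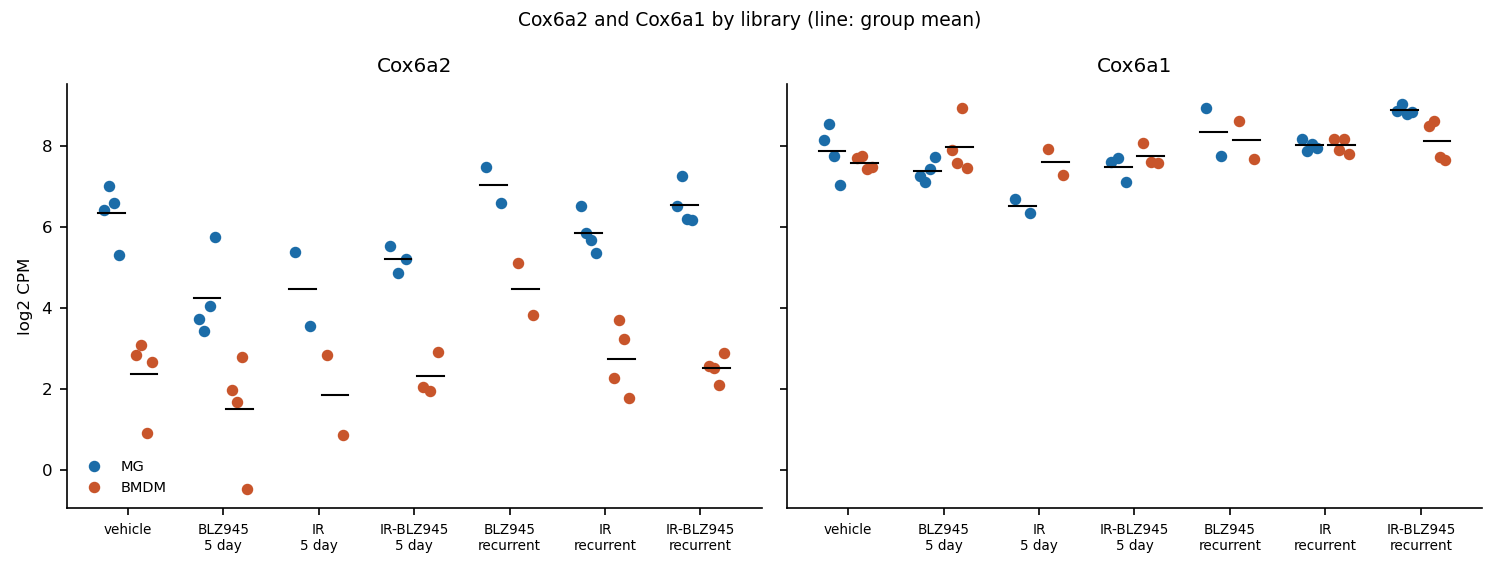
Level in log2 CPM (y axis) of Cox6a2 (left) and Cox6a1 (right) in each library by stage (x axis), with MG in blue, BMDM in orange and lines at group means. All MG points of Cox6a2 lie above all BMDM points of the same stage, while Cox6a1 levels of both populations overlap in most stages.

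Tissue isoforms of complex IV were among the genes that differed between the populations. Cox6a2 (chr7:128205435-128206387, minus strand), known as the isoform of heart and skeletal muscle, had 86.83, 128.92, 97.4 and 39.75 CPM in vehicle MG of mice 41, 78, 65966 and 65967, against 7.06, 8.52, 1.81 and 6.31 CPM in vehicle BMDM. Every MG library was above every BMDM library, at a log2 fold change of 3.89 ± 0.61 (adjusted p = 1.93e-05, edgeR), and all 11 alternatives kept the call, between 3.53 and 4.16.
In other stages MG over BMDM was 2.72 ± 0.59 after BLZ945 at 5 days (adjusted p = 0.000615), 2.60 ± 0.82 after IR (0.0394) and 2.86 ± 0.68 after IR-BLZ945 (0.00388). At recurrence it was 2.98 ± 0.58 after IR (0.00195) and 4.08 ± 0.61 after IR-BLZ945 (4.25e-05), and 2.52 ± 0.81 after BLZ945, which did not pass (adjusted p = 0.382). The call after IR at 5 days was kept in 5 of 8 alternatives.
Within MG, Cox6a2 had 181.12 and 97.59 CPM in recurrent libraries after BLZ945, against 13.21, 10.82, 16.76 and 54.54 CPM at 5 days, with no overlap, at 2.52 ± 0.57 (adjusted p = 0.00778, edgeR). In BMDM it had 34.46 and 14.13 CPM, against 3.88, 3.14, 6.91 and 0.64 CPM, also without overlap, at 2.77 ± 0.78 (adjusted p = 0.0357). The rise at recurrence after BLZ945 thus passed in both populations. In BMDM libraries of all therapies, summed microglia markers were 324.9 to 2391.2 CPM at 5 days and 1824.9 to 4102.5 CPM at recurrence. Their part in the BMDM levels of Cox6a2 was not tested.
Per length, Cox6a2 made up 22.7% of Cox6a2 plus Cox6a1 in vehicle MG and 2.42% in vehicle BMDM. In MG the share was 9.52, 17.9 and 15.1% at 5 days after BLZ945, IR and IR-BLZ945 and 25.4, 16.0 and 14.4% at recurrence. In BMDM it was 1.04, 1.66 and 2.03% and then 6.15, 2.41 and 1.79%. Cox6a1, the common isoform (chr5:115345642-115348981, minus strand), stood at 8.15, 8.54, 7.75 and 7.05 log2 CPM in vehicle MG, against 7.72, 7.75, 7.43 and 7.50 in vehicle BMDM, with overlap.
Cox6a2 lies within the gene Itgad, an integrin of macrophages, on the opposite strand. Itgad had 8.83, 20.02, 10.85 and 48.68 CPM in vehicle MG, against 16.92, 23.25, 19.48 and 13.86 CPM in vehicle BMDM, with overlap. After BLZ945 it had 0.66, 1.46, 0.55 and 27.64 CPM in 5-day MG of mice 122, 123, 124 and 65975. In recurrent MG after BLZ945 it had 7.56 and 20.93 CPM. The same stages of BMDM had 3.25, 0.08, 0 and 19.56 CPM, then 13.38 and 22.16 CPM. Whether reads of Itgad add to the Cox6a2 counts was not tested. Only 3.3% of the 50-base windows of Cox6a2 occur in other transcripts.

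Cox6b2, the testis isoform of subunit 6b (chr7:4751792-4753094, minus strand), ran the other way. After BLZ945 at 5 days it had 0.66, 0.94, 0.55 and 0.18 CPM in MG, against 3.36, 3.82, 14.51 and 1.93 CPM in BMDM, without overlap, at -3.32 ± 0.74 (adjusted p = 0.000851, edgeR), and all 10 alternatives kept the call. After IR it was -3.41 ± 1.04 (adjusted p = 0.0324; kept in 4 of 8) and after IR-BLZ945 -2.56 ± 0.81 (0.0316; 6 of 9). In BMDM recurrent after IR-BLZ945 it had 2.53, 1.73, 2.39 and 1.29 CPM, against 17.19, 10.89 and 6.03 CPM at 5 days, a fall with no overlap and a fitted change of -2.52 ± 0.70 (adjusted p = 0.0459).
Cox4i2, the isoform of subunit 4 known from lung and as induced by low oxygen (chr2:152754173-152765037, plus strand), was low everywhere. It had 2.86, 0.83, 1.25 and 1.66 CPM in IR-recurrent MG and 1.8, 1.95, 0.91 and 1.63 CPM in recurrent MG after IR-BLZ945, against 0 to 0.83 CPM in all 5-day MG libraries. Recurrent libraries did not overlap the 5-day libraries of the same therapy, and it rose by 4.25 ± 1.33 after IR (adjusted p = 0.0413, edgeR) and by 4.02 ± 1.19 after IR-BLZ945 (0.0169) on the log2 scale. In BMDM it had 3.70 and 2.71 CPM at recurrence after BLZ945, against 0 to 0.46 CPM in all 5-day BMDM libraries, at 5.20 ± 1.36 (adjusted p = 0.0252). Since some 5-day libraries are at 0, these fitted changes depend on the prior count.
Cox7a1, the heart and muscle isoform of subunit 7a (chr7:30184144-30186078, plus strand), had 8.21 and 2.51 CPM in recurrent MG after BLZ945, against 0.28, 0.10, 0.36 and 0.83 CPM at 5 days, without overlap, at 3.67 ± 0.90 (adjusted p = 0.0138, edgeR). Its partner Cox7a2 changed by 1.48 in the same comparison. Ndufa4l2, known as induced by HIF, was at most 0.38 CPM and at 0 in all 5-day libraries of both populations, and it gets no fold change here.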

How the data were processed

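RNA from 46 sorted libraries was sequenced after Smart-Seq amplification, per the labels' protocols. The table deposited by the authors holds whole-number read counts per gene, 1 column per library, with no normalization. The submitters' processing notes name CASAVA 1.8, STAR 2.5.0e, HTSeq, DESeq2 and mm10. The gene annotation and whether reads were counted by strand are not given in the sources used here. All value columns were matched to a sample by its title, and 0 were left unmapped.

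Genes were tested with edgeR 4.0.16 (R 4.3.3, limma 3.58.1): TMM scaling, filterByExpr with a minimum count of 10 and a total of 15, and robust quasi-likelihood fits with Benjamini-Hochberg adjustment over all genes tested at 0.05. Fits used the 23 MG libraries, the 23 BMDM libraries, and all 46 for MG against BMDM, with residual degrees of freedom of 16, 16 and 32, and 14534, 14568 and 15901 genes. The scripts were checked on simulated counts with known changes. There were 31 comparisons. Levels are log2 CPM with TMM scaling and a prior count of 1, and group errors are SD over mice. Mice are separate animals per the labels, with 1 library each per population. P-values of the fits within 1 population therefore measure the spread between mice and that of library preparation together. The main joint fit has no term for the mouse and takes MG and BMDM of 1 mouse as separate. Its p-values measure the spread between libraries. Depth limits low genes, and intervals or p-values here cover no bias of amplification that all libraries share. Of the counts, 99.95%, 99.96% and 99.98% lay in genes that passed the filter. Among 58 pairs of replicates none was identical, and chi-square divided by its degrees of freedom was at least 10.1.

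MG and BMDM of 1 mouse are paired by the mouse number in the labels. Their deviations from the group means correlated between -0.094 and 0.442 over 23 pairs, with a median of 0.153 and 13 pairs above 0.1.

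The members and the gene lists were chosen with earlier results of these data known. Named were, among members that passed, up to 6 of the largest rises and 6 of the largest falls per comparison, those without overlap first, or up to 2 of smallest p where none passed. The highest expressed member of each complex, the tissue isoforms with their partners, and up to 3 genes of smallest p from each pathway list were added, with Lars2 and the marker lists as checks. Cox5a, Ndufc2, Ndufv1, Cox6a1 and the other members given with their libraries come from this rule in at least 1 comparison. Alternatives were DESeq2 1.42.0, RLE scaling, no filter on low counts, a term that fits mouse numbers of 2 or 3 digits apart from those of 5 digits, the mouse as a block, each replicate left out, the 6 libraries that stood apart left out, and, chosen after seeing the data, vehicle MG libraries of like Lars2 level only. Lengths, overlaps and shared 50-base windows came from GENCODE vM21 on GRCm38 (82 members by symbol, 2 by synonym), and promoters from RefSeq on GRCm38.p6. The 13 mitochondrially encoded subunits were not analysed here. Some genes of the lists are not reported here.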

Additional observations from a re-analysis of the deposited data

Results flagged for a closer look

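In each group of 4 mice, a library was singled out when its gap to the nearest other library, divided by the range of the group, exceeded Dixon's 95% limit. Of 96 tests, each of 1 group in 1 of 12 measures, 6 gave such a library. Chance alone gives about 1 in 20, so the number is close to that rate. The measures share genes and are not independent. In vehicle BMDM, mouse 65967 stood apart in 3 measures. Its mean level of complex II was 7.65 log2 CPM, with 7.35 to 7.38 in the other 3 mice, its Ndufb8 level was 8.46, with 7.54 to 7.62, and its Atp5b level was 8.95, with 9.78 to 9.93. Mouse 65966 of the same group had a mean level of complex III of 6.74, with 6.93 to 6.96 in the others. In BMDM at 5 days after BLZ945, the library of mouse 124 had a mean level of complex IV of 5.23, with 4.48 to 4.57 in the others, and it is among the libraries with under 11000 genes. In IR-recurrent MG, Sdha was at 8.09 in mouse 68344, with 7.85 to 7.88 in the others, and this library too had under 11000 genes.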

How the results depend on the processing

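No named gene changed its sign under an alternative, while medians of 8 comparisons did, given at the end. With DESeq2, counts of subunits that passed in MG were 2 (0 in edgeR) at 5 days after BLZ945, 41 (12) after IR, 38 (2) at recurrence after IR-BLZ945 against vehicle and 39 (13) at recurrence against 5 days after BLZ945. In BMDM it gave 1 (0) at 5 days after IR and after IR-BLZ945 and 2 (1) for recurrent against 5-day libraries after IR-BLZ945. For MG against BMDM it gave 21 (8) and 15 (7) at 5 days after BLZ945 and IR, 7 (1) at recurrence after IR-BLZ945, and 1 (0) for the response at 5 days after BLZ945.
Without the filter on low counts, counts were 0 in MG recurrent after IR-BLZ945 against vehicle, 1, 4 and 0 in BMDM recurrent against 5 days after BLZ945, IR and IR-BLZ945, and 5 and 4 for MG against BMDM at 5 days after BLZ945 and IR. With RLE scaling they were 7 in MG at 5 days after IR-BLZ945, 9 at recurrence after IR-BLZ945 against vehicle, 25 for recurrent against 5-day MG after BLZ945, and 13 and 2 for MG against BMDM at 5 days after BLZ945 and at recurrence after IR-BLZ945. With the term for 2 or 3 against 5 digits in the mouse number they were 2 and 3 in MG at 5 days after IR and IR-BLZ945, 1 for recurrent against 5 days after BLZ945 in each of MG and BMDM, and 2 for MG against BMDM at recurrence after IR-BLZ945.
With the mouse as a replicate block, 12 of 13 counts of MG against BMDM and of the response kept within 1.5 times, and the count at recurrence after IR-BLZ945 was 5; besides the 3 single calls given above, the pairing changed no other named call. Against vehicle MG of like Lars2 level, counts were 0 at 5 days after IR and IR-BLZ945 and 0 at recurrence after IR-BLZ945. Without the 6 libraries that stood apart, MG against vehicle gave 1, 3 and 1 at 5 days after BLZ945, IR and IR-BLZ945 and 19 at recurrence after IR-BLZ945, BMDM gave 1 at 5 days after IR-BLZ945 and 2 at recurrence after IR, recurrent against 5 days gave 32 in MG after BLZ945 and 16 in BMDM after IR-BLZ945, and MG against BMDM gave 2, 3, 0 and 4 in vehicle and at 5 days after BLZ945, IR and IR-BLZ945, and 4 at recurrence after IR-BLZ945.
Leaving out each replicate, which leaves 1 library in groups of 2 and assumes that it varies like the others, gave, in MG against vehicle, 0 to 2, 0 to 49 and 1 to 34 at 5 days after BLZ945, IR and IR-BLZ945 and 0 to 26 at recurrence after IR-BLZ945, and in BMDM 0 to 3 and 0 to 1 at 5 days after BLZ945 and IR. For recurrent against 5 days it gave 0 to 29, 2 to 30 and 62 to 70 in MG and 0 to 3, 0 to 7 and 0 to 1 in BMDM, after BLZ945, IR and IR-BLZ945. For MG against BMDM it gave 2 to 22, 0 to 1 and 1 to 6 at 5 days and 0 to 1 at recurrence after IR, and for the response at 5 days after BLZ945 0 to 2. The causes of these moves were not tested. Median log2 fold changes of recurrent over 5-day MG ran from 0.30 to 1.38 after BLZ945, from 1.06 to 1.67 after IR and from 1.35 to 1.57 after IR-BLZ945, and those at 5 days against vehicle from -0.77 to -0.18, from -1.54 to -0.76 and from -0.87 to -0.39. Medians that changed sign among alternatives were those of MG recurrent against vehicle after BLZ945 (-0.17 to 0.79, negative without mouse 67668) and IR (-0.31 to 0.18), of BMDM at 5 days against vehicle after BLZ945 (-0.22 to 0.26) and IR (-0.54 to 0.2), of BMDM recurrent against 5 days after BLZ945 (-0.17 to 0.7, negative without mouse 67668), of MG against BMDM in vehicle (-0.14 to 0.48) and at recurrence after BLZ945 (-0.1 to 0.29), and of the response at recurrence after BLZ945 (-0.33 to 0.04). Where a gene was at 0 in both groups after a library was left out, no value is given.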

Other observations

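Markers of other cells that a CD45+ CD11b+ sort can still carry were read beside the subunits in recurrent over 5-day MG. After BLZ945, 3 of 8 neuron, 4 of 10 astrocyte, 2 of 7 endothelial and 1 of 7 choroid plexus markers tested were higher, and after IR 1, 0, 1 and 0 were. After IR-BLZ945 none of these was higher, and 1 neuron, 2 astrocyte, 1 endothelial and 6 choroid plexus markers were lower. No T or NK cell marker of 7 tested and no red cell marker passed in any of the 3, and among 5 neutrophil markers 1 was lower after BLZ945 and 1 after IR. Of 16 genes for mitochondrial import and coupling, which bring proteins and metabolites across the mitochondrial membranes, 1, 4 and 3 rose after BLZ945, IR and IR-BLZ945, with medians of 0.47, 0.63 and 0.49.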
